A study of Mus musculus with 6 samples.

Results

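The CCT chaperonin subunit genes are the 8 genes Tcp1, Cct2, Cct3, Cct4, Cct5, Cct6a, Cct7 and Cct8, chosen by name from the 22416 genes of the deposited table. All 8 were present and all 8 passed the filter on low values. Their ribosome footprints, the mRNA fragments that a translating ribosome shields from nuclease, were sequenced with Ribo-lite, which adapts ribosome profiling to few cells, in 6 libraries of 500 mouse oocytes each. The oocytes came from 4-week-old C57BL/6 females that had received 5 IU of PMSG, a gonadotropin that promotes follicle growth, 44 h before collection. There were 2 libraries in each of 3 groups, all wild type. WT_FGO were fully grown oocytes that still held a germinal vesicle, before meiosis resumes, and WT_MII were oocytes matured in culture to metaphase II, the stage at which an egg awaits fertilization. Both were controls, which according to the study's methods received the solvent DMSO. Treat_MII were metaphase II oocytes that the labels call treated. The study reports that fewer treated oocytes released a first polar body, and that those which reached metaphase II had abnormal spindles. The study's methods name the agent as BYBX, a small molecule that binds RNA G-quadruplexes, four-stranded structures of guanine-rich RNA, and no dose is printed here because the labels of these libraries give none. The labels do not say that replicates came from separate mice or cultures, so p-values measure the spread between these libraries, which may be technical.

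CCT, also called TRiC, is the chaperonin of the cytosol. It is a barrel of a pair of stacked rings, and each ring holds a single copy of every subunit in a fixed order. Newly made actin and tubulin enter the barrel and fold there as ATP is bound and split, as do WD40-repeat proteins such as Cdc20, the activator of the anaphase-promoting complex. Prefoldin hands actin and tubulin to the barrel, and phosducin-like proteins help it with other clients. Because a complete barrel needs all subunits in equal number, the footprint levels of the genes are set side by side below. An oocyte entering metaphase II assembles a tubulin spindle beneath an actin cortex.

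The subunits descend from a common ancestor and share an ATP-binding loop. The coding sequence around it is shown to make clear that the members, though related, can be told apart by short reads. The sequences are from RefSeq on GRCm38, the assembly that mm10 also names, read on the coding strand, and capitals mark the 12 bases that code for the conserved loop.
Tcp1: aaagaagttGGAGATGGAACTacctcagtg
Cct2: gatgaagttGGTGATGGCACTacctctgtt
Cct3: gaagaggttGGAGATGGGACCacatcagta
Cct4: atagaagcaGGAGATGGCACCacgtcggtt
Cct5: gatgaaattGGAGATGGGACCacaggagtg
Cct6a: gacataactGGCGATGGCACTacatccaat
Cct7: gctgaggttGGTGATGGCACCacctcagtg
Cct8: caagaggttGGTGATGGCACAaacttcgtt
They lie at chr17:12918142-12918171 on the plus strand for Tcp1, chr10:117061532-117061561 on the minus strand for Cct2, chr3:88302825-88302854 on the plus strand for Cct3 and chr11:22995957-22995986 on the plus strand for Cct4. Those of Cct5, Cct6a and Cct8 lie at chr15:31597415-31597444 on the minus strand, chr5:129789107-129789136 on the plus strand and chr16:87491371-87491400 on the minus strand. The stretch of Cct7 is coding sequence from both sides of an intron, between chr6:85460043 and chr6:85461068 on the plus strand. Within the 12 bases, 9 positions held the same base in all 8 genes, and 7 different stretches occurred because Cct3 and Cct5 had the same one. Over the whole coding sequences, no stretch of 28 bases, about the length of a footprint, was shared by any of the 28 pairs of members.

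Copies elsewhere in the genome were found for some members. The share of 28-base coding stretches that also occurred at another place was 19.9% for Cct3, 14.4% for Cct7, 6.72% for Cct4, 5.35% for Tcp1 and 0.506% for Cct2. It was 0% for Cct5, Cct6a and Cct8. How reads with more than 1 place were counted is not given in the sources used here, so the levels of Cct3 and Cct7 are the most open to such reads. Cct6a is uncertain for another reason, because the coding exons of its RefSeq transcript covered 1467 bases of the assembly whereas its values fell on whole reads at a length of 1596 bases. Its values are given below as deposited.

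The values are FPKM, footprints per kilobase of coding sequence and scaled to the reads of the library, so that genes of different length can be compared by level. The libraries were shallow. The reads behind the values came to 94310 and 107251 for the WT_FGO libraries, to 164973 and 230907 for WT_MII and to 331304 and 275604 for Treat_MII. The 8 genes together held between 77 and 324 reads in a library. A count of 3 reads, taken as the floor, corresponded for these genes to at most 19.9 FPKM in a WT_FGO library, 11.4 FPKM in a WT_MII library and 6.82 FPKM in a Treat_MII library. Such a floor covers the error of counting alone, because reads copied by PCR are not separate molecules. Every value is relative to its library's total, so the amount per oocyte cannot be read from it. Each library was given as 500 oocytes. For reads from other cells in these bulk samples, fewer cells and less RNA per cell cannot be told apart. Markers of the oocyte were detected in every library, the summed level of the 10 markers lying between 9992 and 60850 FPKM. Other cells were not excluded. Of 5 blood markers, 3 were listed at 0 in all 6 libraries, but the others had reads. Markers of granulosa or cumulus cells summed to between 113 and 1081 FPKM in a library.

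Between the fully grown stage and metaphase II, footprints on most of the chaperonin genes fell. Summed over the 8 genes, the level was 1582 ± 296 FPKM in WT_FGO (SD, n = 2) and 274 ± 10.3 FPKM in WT_MII (SD, n = 2), a 5.78-fold lower level. The chaperonin thus took 0.266% ± 0.0509 of the reads in WT_FGO and 0.0456% ± 0.00146 in WT_MII (SD, n = 2 each). Of the 8 genes, 5 were called lower and none higher by limma at an adjusted p under 0.05. Of all 15127 genes tested, 3.09% were called lower and 3.67% higher, 6.76% in all. At an unadjusted p under 0.05, 6 members were lower and none higher (limma), against 13.1% and 9.65% of all genes. The log2 change of the 8 had a median of -2.64, beside a median of -0.44 over all genes tested.

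**Figure D1:**
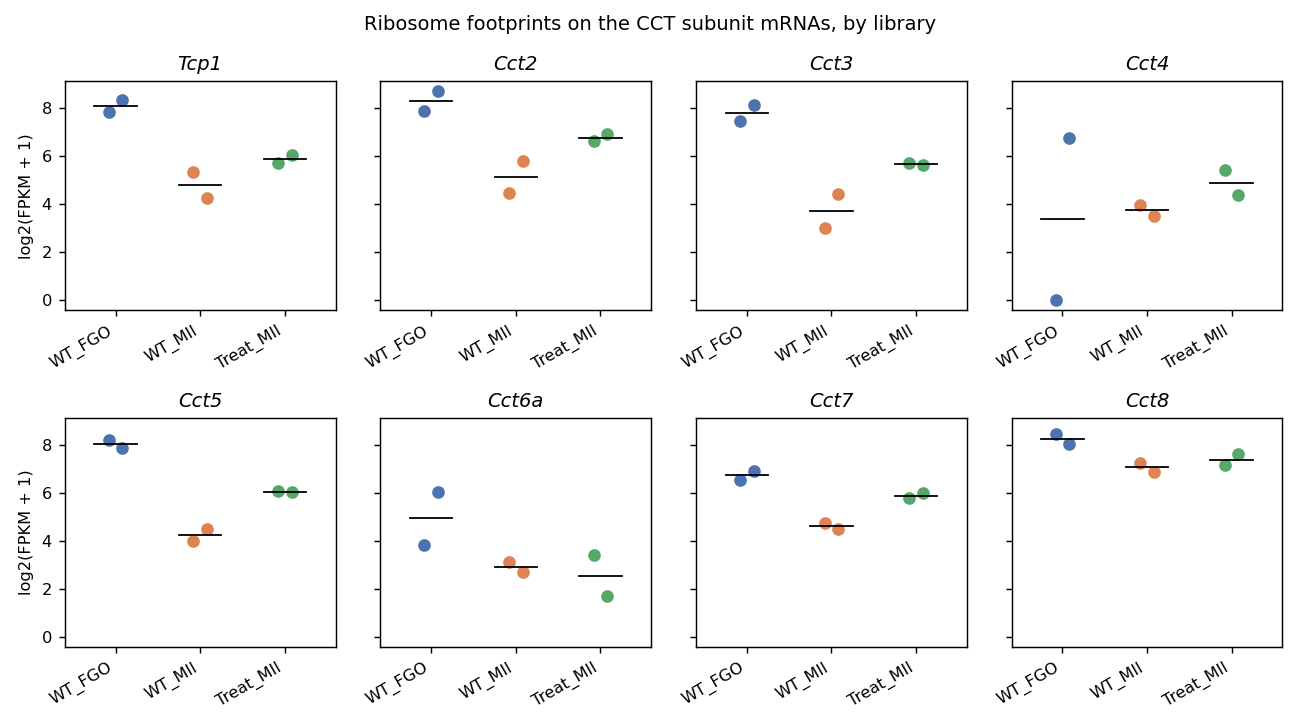
Level of each CCT gene in every library as log2(FPKM + 1), in the fully grown (WT_FGO), control metaphase II (WT_MII) and treated metaphase II (Treat_MII) groups. Points are libraries and bars are the means of 2. WT_MII lies below WT_FGO without overlap in 7 of the 8 genes, and Cct4 is listed at 0 in a WT_FGO library.

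Cct5, the epsilon subunit, fell with the smallest adjusted p. It stood at 287 and 230 FPKM in the WT_FGO libraries, fell to 14.9 and 21.3 FPKM in WT_MII, and had 65.1 and 64.8 FPKM in Treat_MII. Behind its WT_MII values stood only 4 and 8 reads, and the first lies just above the floor of 11.2 FPKM. The groups did not overlap, and the order was fully grown, treated, control metaphase II. The log2 change at maturation was -3.77 ± 0.42 (SE, limma adjusted p = 0.00733). With either WT_FGO or either WT_MII library left out, Cct5 was called in all 4 fits, which held for no other member.

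Cct3, the gamma subunit, was also called lower. Its levels were 173 and 277 FPKM in fully grown oocytes, 7.05 and 20.2 FPKM in control metaphase II oocytes, and 50.9 and 48.5 FPKM after treatment. Behind the WT_MII values stood 2 and 8 reads, so the first lies under the floor of 10.6 FPKM. The log2 change was -4.07 ± 0.61 (SE, limma adjusted p = 0.0184). Without that first WT_MII library it was -3.38 and not called (limma adjusted p = 0.0534), and Cct3 was called in 1 of the 4 fits that left out a library.

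Tcp1 is the alpha subunit, for which the complex is named. It was measured at 225 and 324 FPKM before maturation, 39.3 and 17.9 FPKM at metaphase II in controls, and 51.6 and 64.1 FPKM at metaphase II after treatment. It fell by 3.30 ± 0.52 on the log2 scale (SE, limma adjusted p = 0.0216), and was called in 1 of the 4 fits that left out a library, with limma adjusted p between 0.0361 and 0.0989. Cct2, the beta subunit, went from 236 and 410 FPKM to 20.8 and 54.4 FPKM, and stood at 96.5 and 118 FPKM in the treated libraries. The WT_MII libraries of Cct2 differed from each other more than 2-fold in level, with 6 and 22 reads. Its log2 change was -3.17 ± 0.57 (SE, limma adjusted p = 0.0316), and it passed the test in none of the 4 fits that left out a library.

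Cct7, the eta subunit, was the least changed of the 5 called. Its levels were 91.0 and 120 FPKM in the WT_FGO libraries, 26.0 and 21.2 FPKM in those of WT_MII, and 53.6 and 62.3 FPKM in those of Treat_MII. The log2 change of -2.11 ± 0.44 stood close to the threshold (SE, limma adjusted p = 0.0472). When each library was centred on its median, Cct7 was no longer called (-1.61, limma adjusted p = 0.0933), and with the replicate number as a block the limma adjusted p was 0.0876. The other 4 stayed called under both. Across all 10 settings that kept every library, Cct7 was called in 4 and each of the other 4 called genes in 8. With 1 library of the compared groups left out, Cct7 was called in 2 of 4 fits.

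The remaining 3 members did not pass the test. Cct8, the theta subunit, was at 347 and 260 FPKM in fully grown oocytes, 151 and 116 FPKM in control metaphase II oocytes, and 141 and 194 FPKM in treated ones. The WT_FGO and WT_MII libraries did not overlap, and the log2 change was -1.18 ± 0.36 (SE, limma adjusted p = 0.116). Cct8 had at least 41 reads in every library, and its interval ran from -2.06 to -0.31 (95%, limma). Cct8 had the smallest change among the 7 members with a negative sign.

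Cct4, the delta subunit, was listed at 0 in the first WT_FGO library and stood at 106 FPKM in the second. A count of 3 reads in that first library would have been 19.1 FPKM. The WT_MII values were 14.5 and 10.4 FPKM, from 4 reads each, and the Treat_MII values were 41.6 and 19.6 FPKM. The fitted log2 change at maturation was 0.36 ± 2.05 (SE, limma adjusted p = 0.967) and turned to -3.01 when the first WT_FGO library was left out (limma adjusted p = 0.103). The direction of Cct4 thus rests on 1 library.

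Cct6a, the zeta subunit, was the lowest or next to lowest gene in every library. It was at 13.3 and 64.3 FPKM before maturation, 7.60 and 5.43 FPKM at metaphase II in controls, and 9.46 and 2.27 FPKM at metaphase II after treatment. It had 2 and 11 reads in the WT_FGO libraries and at most 5 in any other library, so 4 of its 6 values lay under the floor. The log2 change was -2.04 ± 1.05 (SE, limma adjusted p = 0.337).

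Counted by overlap, 7 of the 8 members had both WT_MII libraries below both WT_FGO libraries, as did 25.8% of all genes tested, and none had both above, as 15.3% of all genes did. The 7 include Cct6a, which had 2 reads in the first WT_FGO library and 2 in each WT_MII library, all under the floor. Its order there follows from the depth of the libraries. An exact permutation test of 2 libraries against 2 cannot give a two-sided p below 0.333. The limma fit used here instead takes a spread shared in part with the other genes. The call depends on how that spread is estimated. When limma was fitted to the compared groups alone, or with no trend of variance on mean level, none of the 8 was called, the limma adjusted p of Cct5 being 0.116 and 0.0545.

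Footprints on the oocyte markers moved in the same direction. The summed level of the 10 oocyte markers was between 41170 and 60850 FPKM in WT_FGO. It was between 9992 and 10470 FPKM in WT_MII and between 17200 and 17540 FPKM in Treat_MII. At maturation 8 of the 10 were called lower, against 3.09% of all genes tested. The 12 granulosa or cumulus markers summed to between 139 and 1081 FPKM, 180 and 275 FPKM, and 113 and 138 FPKM. Of these, Inha, an inhibin subunit of granulosa cells, was at 29.0 FPKM in the first WT_FGO library and 747 FPKM in the second. Amh (57.4 and 196 FPKM), Inhbb, Foxl2 and Fshr were also higher in the second, whereas Cyp19a1 (35.1 and 24.7 FPKM), Kitl and Amhr2 were lower there. In the first WT_MII library Kitl alone was at 168 FPKM. The 5 blood markers summed to between 48.6 and 49.5 FPKM in WT_FGO libraries, between 3.13 and 4.47 FPKM at control metaphase II and at most 3.74 FPKM after treatment. Of those not at 0 everywhere, Hba-a1, an alpha-globin, had 1 and 2 reads in WT_FGO and none in the other libraries and was called lower (limma adjusted p = 0.0361), and Ptprc, a leukocyte surface phosphatase, was at 24.6 and 4.81 FPKM in WT_FGO and 3.13 and 4.47 FPKM in WT_MII (limma adjusted p = 0.528). The part of any of these markers in the fall of the chaperonin genes was not tested.

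In the treated oocytes 6 of the 8 chaperonin genes had both libraries above both control metaphase II libraries, as did 16.2% of all genes tested. Cct6a and Cct8 overlapped between the groups, and no gene passed the test. Their summed level was 542 ± 45.0 FPKM (SD, n = 2), 1.98 times that of WT_MII, and 0.0908% ± 0.00759 of the reads. Of all 15127 genes tested, 0% were called by limma in this comparison, so none of the 8 was. At an unadjusted p under 0.05, limma had 4 of the 8 higher and none lower, against 3.81% of all genes higher and 2.02% lower. The median log2 difference of the 8 was 1.21, beside 0 over all genes.

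By member, the fitted difference between treated and control metaphase II oocytes was 1.96 ± 0.61 for Cct3 (SE, limma adjusted p = 0.803), 1.81 ± 0.42 for Cct5 (SE, limma adjusted p = 0.709) and 1.63 ± 0.57 for Cct2 (SE, limma adjusted p = 0.836). Cct7 differed by 1.26 ± 0.44, Tcp1 by 1.09 ± 0.52 and Cct8 by 0.32 ± 0.36 (SE). Their order rests on single WT_MII libraries. Without the first, in which Cct3 had 2 reads, the differences were 1.26 for Cct3, 0.96 for Cct2, 1.56 for Cct5 and 1.63 for Tcp1, and without the second that of Tcp1 was 0.54. The 4 members at an unadjusted p under 0.05 were Cct2, Cct3, Cct5 and Cct7. In none of the 8 did both treated libraries lie below both WT_MII libraries, against 15.6% of all genes. Cct6a had the only negative sign, -0.35 ± 1.05, which turned to 0.49 without the second Treat_MII library.

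**Figure D2:**
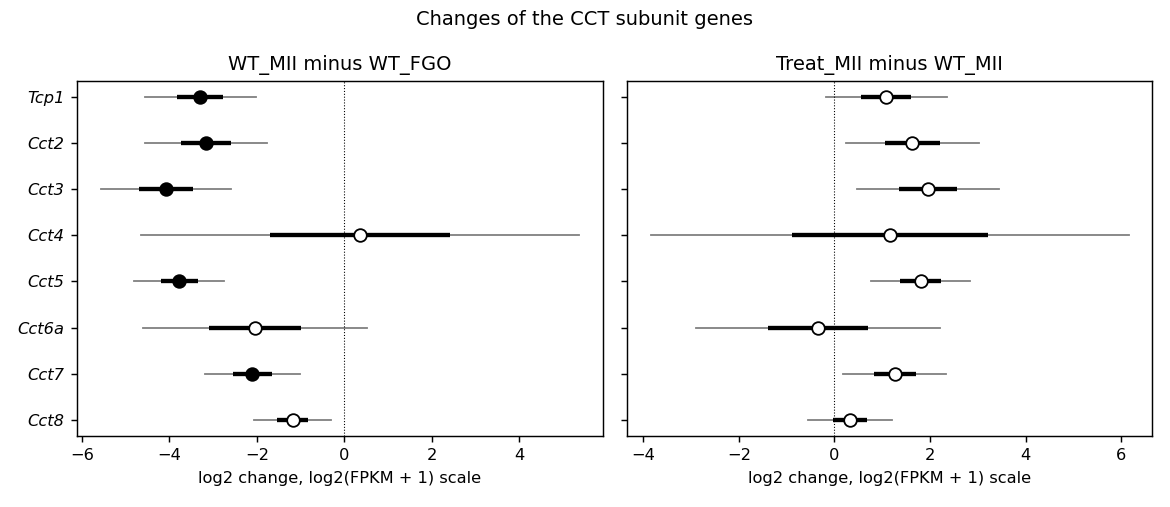
Log2 change of each CCT gene at maturation (left, WT_MII minus WT_FGO) and with treatment (right, Treat_MII minus WT_MII). Thick bars are standard errors, thin lines are 95% intervals from limma, and filled points have an adjusted p under 0.05. At maturation 5 points are filled, none is filled for treatment, and the interval of Cct4 is the widest in both.

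The oocyte markers again moved alike, with 9 of 10 higher in the treated than in the control metaphase II libraries, 8 of them at an unadjusted p under 0.05 and none called (limma). Over all genes, 3.81% were higher at that unadjusted threshold. The part of this in the difference of the chaperonin genes was not tested. The control libraries of metaphase II serve in both comparisons, so a low value in them makes the fall at maturation and the difference with treatment larger together.

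Set against the fully grown oocytes, the treated metaphase II oocytes still had a 2.92-fold lower summed chaperonin level. None of the 8 was called, against 3.87% of all genes called in either direction (limma). At an unadjusted p under 0.05, 4 members were lower and none higher (limma), against 10.4% and 9.51% of all genes. Both treated libraries lay below both WT_FGO libraries in 7 members, as in 28.9% of all genes tested, and above them in none, against 16.6%. Those 7 include Cct6a, which had 2 reads in the first WT_FGO library and 5 and 1 in the treated ones. The median log2 difference of the members was -1.75, beside -0.53 over all genes. The nearest to the threshold were Cct5, with -1.97 ± 0.42 (SE, limma adjusted p = 0.0673), and Tcp1, with -2.21 ± 0.52 (SE, limma adjusted p = 0.0838). Cct8 and Cct7 were the closest to their fully grown level of the members with a negative sign, at -0.86 ± 0.36 and -0.84 ± 0.44 (SE).

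Within a library the subunits were not at equal levels. In fully grown oocytes, Cct2 (323 ± 123 FPKM), Cct8 (304 ± 61.7 FPKM), Tcp1 (274 ± 70.1 FPKM), Cct5 (259 ± 40.8 FPKM) and Cct3 (225 ± 73.5 FPKM) followed each other by less than their SD (n = 2). Cct7 was lower, at 105 ± 20.5 FPKM (SD, n = 2), and Cct4 and Cct6a were the other low members. In WT_MII, Cct8 led at 133 ± 24.9 FPKM (SD, n = 2). The next were Cct2 at 37.6 ± 23.8 FPKM, Tcp1 at 28.6 ± 15.1 FPKM, Cct7 at 23.6 ± 3.37 FPKM and Cct5 at 18.1 ± 4.53 FPKM (SD, n = 2), whose order cannot be told from their spread. In Treat_MII, Cct8 at 167 ± 37.3 FPKM and Cct2 at 107 ± 15.3 FPKM stood above Cct5 (65.0 ± 0.183 FPKM), Cct7 (57.9 ± 6.09 FPKM), Tcp1 (57.8 ± 8.88 FPKM) and Cct3 (49.7 ± 1.68 FPKM; SD, n = 2).

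Cct8 was the highest subunit in 5 of the 6 libraries, the exception being the second WT_FGO library, where Cct2 led. It made up 25.3% and 14.5% of the summed level in WT_FGO, 53.7% and 43.4% in WT_MII, and 27.7% and 33.8% in Treat_MII. Put as a ratio to the median of the other 7, Cct8 stood at 2.01 and 1.13 in WT_FGO, at 10.1 and 5.74 in WT_MII, and at 2.74 and 3.11 in Treat_MII. The median used in the first WT_MII library was that of Cct5, from 4 reads, and in the second that of Cct3, from 8 reads. The size of the ratio in WT_MII is therefore uncertain from counting alone. The WT_MII libraries did not overlap those of either other group in this ratio, and with 2 libraries a group the exact two-sided permutation p cannot go below 0.333. The spread between subunits, as a coefficient of variation, came to 73.8% and 53.1% in the fully grown libraries, 136% and 109% in control metaphase II and 61.9% and 83.9% after treatment. Without Cct4, listed at 0 in the first fully grown library, the value for that library was 58.4%. The 6 prefoldin genes, which also form a complex, varied by between 72.3% and 188% within a library.

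**Figure D3:**
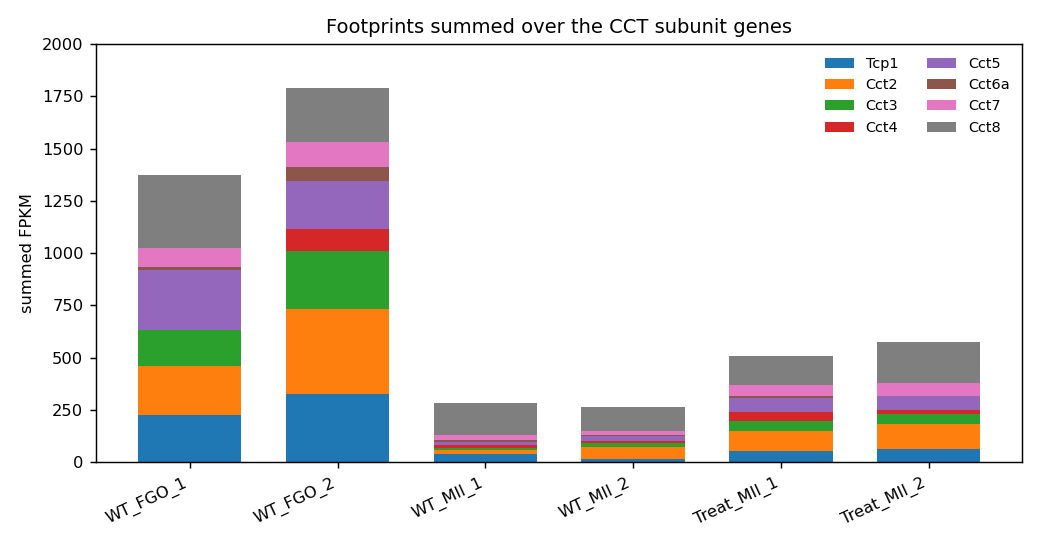
Summed FPKM of the CCT genes in each library, split by gene. The bars reach 1373 and 1791 FPKM in the WT_FGO libraries, 281 and 266 FPKM in those of WT_MII, and 510 and 573 FPKM in those of Treat_MII, and the Cct8 segment takes 53.7% and 43.4% of the WT_MII bars.

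The partners of the chaperonin were read from the same fit. Prefoldin, the complex that passes unfolded actin and tubulin to CCT, had 2 of its 6 genes called lower at maturation and none called higher. Over all genes tested, 3.09% were called lower and 3.67% higher. Pfdn5 was at 390 and 646 FPKM in WT_FGO and at 52.5 and 84.4 FPKM in WT_MII, and fell by 2.90 ± 0.41 on the log2 scale (SE, limma adjusted p = 0.0160). Pfdn6 had 3 and 2 reads in WT_FGO and was listed at 0 in both WT_MII libraries. It was called (limma adjusted p = 0.0452), but no fold is given because its WT_FGO mean of 66.0 FPKM is under the mean floor of 78.3 FPKM for 3 reads. The median log2 change of the 6 was -3.04, or -2.22 with Pfdn6 set to no change.

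Pfdn4 stood apart from the other prefoldin genes and is named after its values were seen. It was at 79.1 FPKM in the first WT_FGO library and listed at 0 in the second, and at 995 and 1239 FPKM in control and 1457 and 1697 FPKM in treated metaphase II oocytes. Its libraries did not overlap between WT_FGO and either metaphase II group, in the direction opposite to the CCT genes, though it did not pass the test (limma adjusted p = 0.0846).

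Of the 6 tested CCT cofactors and prefoldin-like genes, none was called at maturation (limma; 1 was higher and 2 lower at an unadjusted p under 0.05). Over all genes, 9.65% were higher and 13.1% lower at that unadjusted threshold. The one with the highest mean level, Pdrg1, was at 263 and 189 FPKM in WT_FGO and at 54.7 and 147 FPKM in WT_MII. By sign, 2 of the list were higher and 3 lower. The phosducin-like gene Pdcl3, named after its values were seen, went the other way. It was at 0 and 30.8 FPKM in WT_FGO, from 0 and 3 reads, and at 153.5 and 124 FPKM in WT_MII (limma adjusted p = 0.133). The list had a median log2 change of -0.61. Of the 6 tubulin folding cofactors, which receive tubulin after CCT, 1 was called lower, against 3.09% of all genes. This was Tbcb, which binds alpha-tubulin, at 217 and 229 FPKM in WT_FGO and 24.8 and 17.8 FPKM in WT_MII, a fall by 3.35 ± 0.49 on the log2 scale (SE, limma adjusted p = 0.0173). The list's median was -2.43.

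The known substrates of CCT went both ways. Of 24 tested, 3 were called lower at maturation and 2 higher, against 3.09% and 3.67% of all genes. Their median log2 change was -0.92, or -0.66 with the 3 genes listed at 0 throughout either compared group set to no change. Among those that fell, Actb, cytoplasmic beta-actin, was at 411 and 337 FPKM in WT_FGO and at 58.8 and 22.9 FPKM in WT_MII (-3.30 ± 0.53, SE, limma adjusted p = 0.0230). Tubb2a, a beta-tubulin, went from 667 and 545 FPKM to 99.9 and 64.9 FPKM (-2.89 ± 0.35, SE, limma adjusted p = 0.00975). Tubb5, another beta-tubulin, went from 183 and 252 FPKM to 59.2 and 52.0 FPKM (-1.93 ± 0.37, SE, limma adjusted p = 0.0373).

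The substrates that rose were Cdc20 and Tubb3. Cdc20 had 7.08 and 12.5 FPKM in WT_FGO, from 1 and 2 reads, and 340 and 344 FPKM in WT_MII. Its log2 change was 5.04 ± 0.40 (SE, limma adjusted p = 0.00277), and the ratio of its read shares was 34.5, with a counting interval from 11.6 to 168 (95%, exact). That interval pools the reads of a group, 3 in WT_FGO and 203 in WT_MII, and takes each as a separate molecule. It leaves out the spread between libraries. Tubb3, a beta-tubulin known from neurons, rose from 118 and 124 FPKM to 683 and 1097 FPKM (2.83 ± 0.31, SE, limma adjusted p = 0.00676). In Treat_MII the levels were 425 and 448 FPKM for Cdc20 and 1037 and 941 FPKM for Tubb3. Both were thus high in all 4 metaphase II libraries. In these libraries 7 of the 8 CCT genes were below their fully grown level, Cct6a among them with few reads. Tubulin and actin genes are near-identical to each other and to pseudogenes in places, so their values are uncertain where reads could have more than 1 place. Tuba1a was listed at 0 in all libraries.

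Of the 16 cytosolic HSP70, HSP90 and HSP110 chaperones and co-chaperones, 3 were called lower at maturation and none higher. The shares over all genes were 3.09% and 3.67%. The list's median log2 change was -1.16, or -0.93 with the 2 genes listed at 0 throughout either compared group set to no change. Hspa4, a nucleotide exchange factor of HSP70, went from 96.5 and 144 FPKM to 16.8 and 6.86 FPKM (-3.33 ± 0.61, SE, limma adjusted p = 0.0327). Dnaja2, a J-domain co-chaperone, went from 317 and 385 FPKM to 63.8 and 45.5 FPKM (-2.67 ± 0.38, SE, limma adjusted p = 0.0153). St13, which binds HSP70, went from 353 and 369 FPKM to 81.7 and 50.6 FPKM (-2.47 ± 0.39, SE, limma adjusted p = 0.0213). Hspa8, the constitutive HSP70, was listed at 0 in 5 of the 6 libraries. Because the counting of reads with more than 1 place is not given, such a 0 does not show that Hspa8 was untranslated. Whether its reads had more than 1 place was not tested.

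Other chaperonins were barely measured. Of the 7 on the list 4 were tested and none was called, nor did any pass at an unadjusted p under 0.05 (limma). The highest on average was Hspe1, the mitochondrial co-chaperonin, at 139 FPKM from 4 reads in the first WT_FGO library and listed at 0 in the second and in both WT_MII libraries. Cct6b, the testis form of the zeta subunit, had 1 read in each of 2 libraries and none in the other 4. Between treated and control metaphase II oocytes, no gene of any of these lists was called (limma; 2 prefoldin genes and 1 HSP list gene were higher at an unadjusted p under 0.05). The share of all genes higher at that unadjusted threshold was 3.81%.

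**Figure D4:**
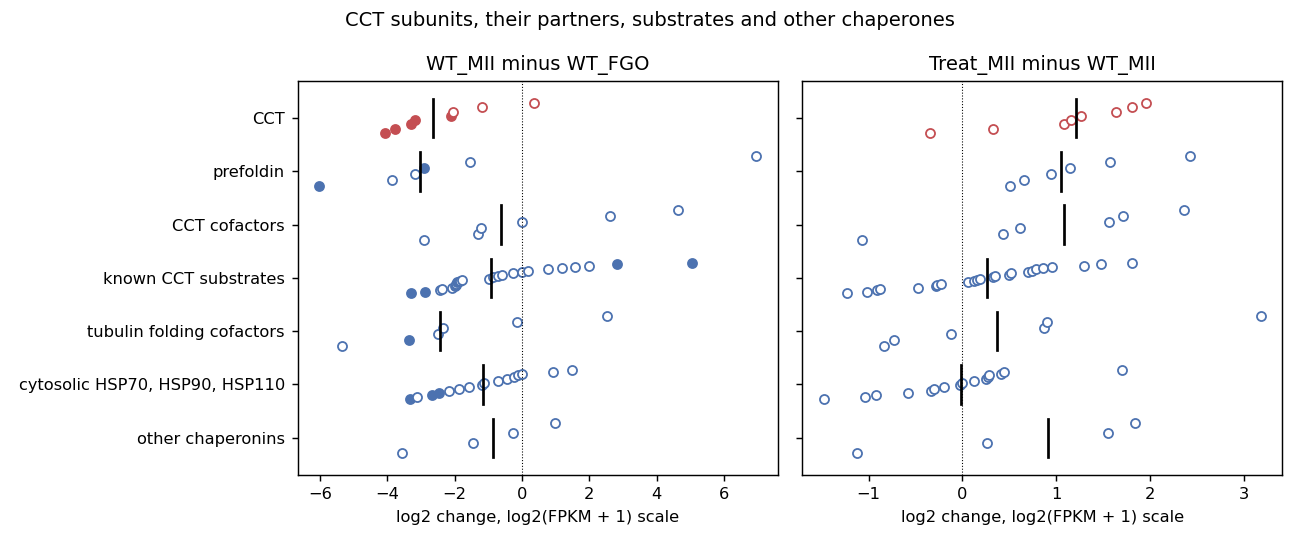
Log2 change of the tested genes of each list at maturation (left) and with treatment (right). Each point is a gene, filled where the limma adjusted p was under 0.05, red for CCT, and the vertical bars are the lists' fitted medians. At maturation the CCT median is -2.64 and the filled points on the right of 0 are Tubb3 and Cdc20, and no point is filled for treatment.

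Genes with a pattern near that of the chaperonin were looked for among 6359 named genes whose mean level reached 10 FPKM. Likeness was the root mean square difference, over the 6 libraries, between a gene's log2(FPKM + 1) and the mean of the 8 members, each centred on its own mean. The nearest were Olfr1438-ps1 (0.141), Drap1 (0.186), Srprb (0.205), St8sia1 (0.211) and Ubn1 (0.211). Drap1, a transcriptional corepressor subunit, was at 117 and 367 FPKM in fully grown oocytes, 28.6 and 34.1 FPKM in control metaphase II oocytes, and 66.4 and 68.5 FPKM in treated ones. None of the 5 was called at maturation. The mean profile holds the 0 of Cct4 in the first WT_FGO library, and all of the 5 were lower there than in the second. The members themselves lay between 0.363 for Cct7 and 2.07 for Cct4 from their own mean. The 5 were picked as the nearest of 6359 genes, so nothing about the members is drawn from their lying nearer.

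The transcripts of the members were searched for a G-quadruplex motif because the treatment binds such structures. The motif was 4 runs of at least 3 G separated by 1 to 7 bases, on the RNA strand of the RefSeq transcript alone. None of the 8 held it in the 5′ UTR, the coding sequence or the 3′ UTR, whereas 19.0% of the 14823 tested genes with a RefSeq transcript held it somewhere. With runs of at least 2 G all 8 held it, as did 95.6% of those genes. A match describes the letters only, and its absence draws nothing about structures in these RNAs.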

How the data were processed

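Ribo-lite footprint libraries of mouse oocytes were compared between 3 groups of 2 libraries. The deposited FPKM, per coding kilobase and scaled to the reads of a library, were made by the authors without stated spike-in scaling or pooling. The submitters' processing notes name cutadapt 1.14, Bowtie2 2.2.2, STAR 2.5.3a and mm10. Counting program, annotation and use of molecular identifiers are not given in the sources used here. RNA-seq of the study was not analysed here, so footprints per mRNA were not computed and a change of mRNA level cannot be told apart from one of translation.

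FPKM multiplied by coding length (GENCODE vM21, or RefSeq for 370 genes) gave whole reads within 0.02 in all libraries for 97.8% of 22331 genes. Of repeated gene names, 26 entries were left out. log2(FPKM + 1) of genes whose mean reached 1 FPKM was fitted in all 6 libraries with limma 3.58.1 (trend in eBayes, R 4.3.3), with Benjamini-Hochberg adjustment over all 15127 genes and a threshold of 0.05. Fold changes on this scale understate low genes that have reads in both groups. Where a library is listed at 0 they depend on the added 1 and can be overstated. A single read on 1 kb of coding sequence stood at between 3.02 and 10.6 FPKM. The fitted change of Cct4 at maturation, for example, was 0.36 with 1 added and 1.93 with 0.1 added. The fit was tested on simulated data at 2 spreads between replicates. Directions and sizes were recovered in both, but at the wider spread, run first, no changed gene was called, and the narrower one with larger changes was added after that. A gene not called here may therefore have changed. Members, gene lists and tests were chosen with earlier results of these data known. By rule all 8 members were named, and of each list the genes called at maturation or with treatment, or otherwise the one of highest mean, plus the 5 nearest patterns. Alternatives were another pseudocount, other filters, centring, quantile normalization, a common total, a replicate block, separate fits, no trend, precision weights and each library left out. Same-numbered libraries of different groups did not deviate together (r = 0.0342, 0.0176 and 0.0189 over 2706 genes), and the labels tie nothing to the number, so libraries were not paired.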

Additional observations from a re-analysis of the deposited data

How the results depend on the processing

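At maturation the 5 calls fell to 0 with the compared groups alone and to 0 without a mean-variance trend, with all genes called going from 1023 to 0 and 328. With 1 library left out, 2 of the 8 genes were called each time (2 to 2), their median log2 change lay between -3.35 and -2.34, and between 826 (without the first WT_MII library) and 1843 (without the first WT_FGO library) of all genes were called. The lone library is then assumed to vary like the other groups. Median centring gave medians of -2.14 at maturation and -1.18 for treated against fully grown oocytes. With treatment the count of all genes called went from 0 to between 363 and 418 with 1 library left out, and that of the 8 stayed at 0. For treated against fully grown oocytes, the 0 calls became 1 with a minimum of 5 FPKM and 3 with precision weights, the median lay between -1.89 and -1.21 with 1 library left out, and all genes called went from 585 to 32 (compared groups alone), 59 (no trend) and between 466 and 1604 (1 library left out). Signs turned for Cct4 without the first WT_FGO library, to -3.01 at maturation and -1.86 for treated against fully grown oocytes (3.73 and 4.89 without the second), and for Cct6a with treatment, to 0.49 without the second Treat_MII library. The replicate block left 4 of the 5 calls at maturation and Cct7 at an adjusted p of 0.0876 (limma). It changed no other call of a member. The cause of these changes was not tested. Of 112 values of single members per comparison, 26 lost their call and 1 turned sign at maturation, 1 turned sign with treatment, and for treated against fully grown oocytes 4 became called and 1 turned sign. The other 85, 111 and 107 kept their side of the threshold, called and uncalled genes counted alike. Depth limits Cct4 and Cct6a most, with at most 23 and 11 reads in a library. It also limits the called members at control metaphase II. Over both WT_MII libraries they had 10 reads for Cct3, 12 for Cct5, 15 for Cct7, 18 for Tcp1 and 28 for Cct2.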
